A study of Mus musculus with 6 samples.

Results

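The Hippo pathway, its coactivators and their target genes were followed in whole pancreas after deletion of Ptf1a, the transcription factor that maintains acinar cells. The genes were named by a fixed rule, namely the coactivators Yap1 and Wwtr1, the DNA-binding factors Tead1, Tead2 and Tead3, the kinases Lats1 and Lats2, and the target genes Ctgf, Cyr61 and Amotl2. Of these 10 genes, 9 were found among the 10245 genes of the table, and Cyr61 was not analysed here. RNA came from 3 control mice, Ptf1a(CreER/+), at 4 months of age and 3 Ptf1a cKO mice, Ptf1a(CreER/fl), at 5 months, each group with both sexes. All 6 mice carried the CreER allele, which is expressed from the Ptf1a locus and makes no PTF1A protein, so the controls were heterozygous for Ptf1a. All mice received tamoxifen (TM) by gavage at 0.25 mg/g on 3 days and were sacrificed on day 14. Recombination acts in cells that express Ptf1a and is incomplete, so Ptf1a cKO pancreata are mosaics. Age followed genotype and cannot be told apart from it.

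In the Hippo pathway, the kinases STK3 and STK4 (MST2 and MST1) activate LATS1 and LATS2, which phosphorylate YAP (Yap1) and TAZ (Wwtr1) and hold them in the cytoplasm. Unphosphorylated YAP and TAZ enter the nucleus and, bound to TEAD factors, switch on genes for growth, matrix and cytoskeleton, among them Ctgf, Cyr61, Amotl2 and Lats2 itself. In pancreas, YAP is known to be abundant in duct and centroacinar cells and low in mature acinar cells, and to accumulate when acinar cells turn into duct-like cells.

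Values are normalized read counts on a common scale that the authors set across the 6 libraries, and the number of reads behind a value cannot be read from them. Ptf1a itself lay between 566 and 652 normalized counts in the controls and between 10.2 and 70.1 in Ptf1a cKO, with the highest value in replicate 2. Library medians over all genes ran from 125 to 129 normalized counts, while the sums over all genes, in units of 1e6 normalized counts, were 17.9 to 21.2 in control and 5.53 to 8.98 in Ptf1a cKO. Markers of other cells moved with genotype. In these counts a marker rose or fell if it passed limma at an adjusted p under 0.05 (Benjamini-Hochberg over all genes). Of all genes, 17.1% passed as higher and 16.8% as lower. All 15 acinar markers were lower in each Ptf1a cKO library than in any control library, as were 24.3% of all genes. Of these 15 markers, 12 fell past the threshold and none rose. The summed level of the 15 in Ptf1a cKO was between 12.4% and 34.4% of the control mean. Of the fibroblast and stellate markers 11 of 12 rose, and their sum was between 176% and 322% of the control mean. Of the leukocyte markers 7 of 8 rose, with sums between 184% and 409%, and 4 of 7 ductal markers rose, with sums between 178% and 196%. Among these, Cd52 (leukocyte) and Car2 (ductal) had control means of 10.9 and 7.03 normalized counts. No gene analysed here had a mean below 16.8 over the 6 libraries. Genes as low as these 2 in both groups are therefore absent, which favours rises in such genes. The sum of 8 endothelial markers lay between 89.3% and 111% of the control mean, and 1 of them rose. Of 4 smooth muscle and pericyte markers 2 rose, and their sum was 220 to 260 normalized counts in control and 271 to 552 in Ptf1a cKO. None of 7 islet markers passed (limma, 0 also at an unadjusted p under 0.05), and their sum ran from 11369 to 42640 in control and from 5817 to 33247 in Ptf1a cKO. None of these markers was at 0 in any library. In whole tissue, fewer cells of a type and less RNA per cell cannot be told apart, and the part of these shifts in the values below was not tested.

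Of the 9 genes, 4 rose and 3 fell in Ptf1a cKO (limma, Benjamini-Hochberg adjusted p under 0.05 over all genes). Over all 10245 genes, 33.9% passed this threshold, 17.1% higher and 16.8% lower. Yap1, Wwtr1, Tead3 and Ctgf rose, and Tead2, Amotl2 and Lats1 fell, although rescaling to equal library totals turned Amotl2 and Lats1 to the other sign. Tead1 and Lats2 did not pass. The median log2 fold change of the 9 genes was 0.15, against 0.036 over all genes. The groups did not overlap for any of the 7 genes that passed, as for 50.8% of all genes. An exact permutation test of a single gene gave p = 0.10 (two-sided) for each of the 7, the smallest that 3 libraries against 3 allow. Fold changes are given on the log2(value + pseudocount) scale, with a pseudocount of 3.41 normalized counts, which understates the change of low genes.

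**Figure D1:**
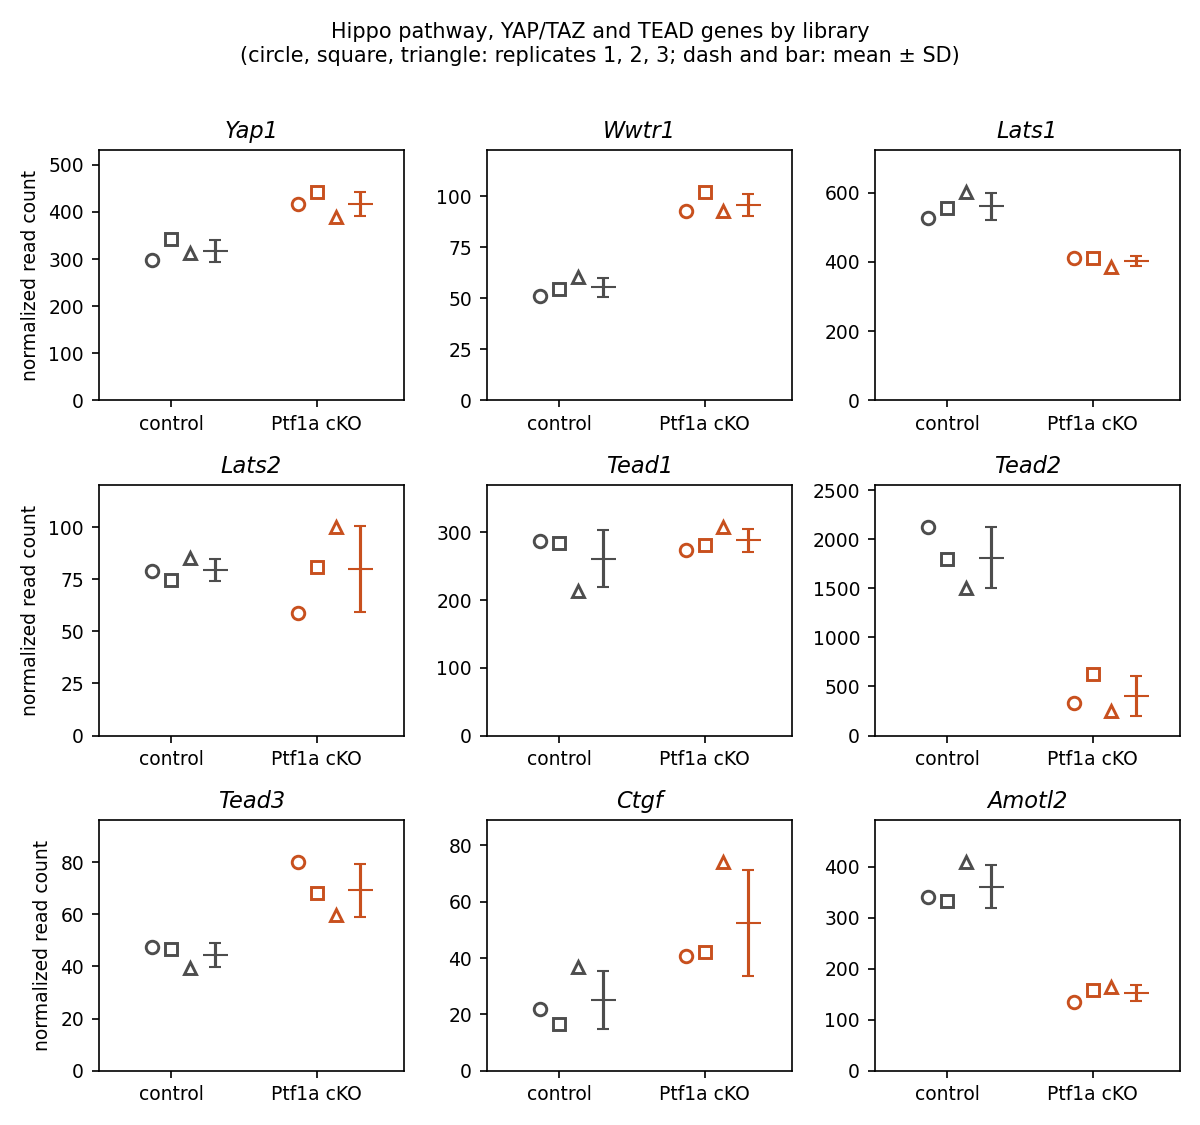
Normalized read counts (vertical axes, from 0) of the 9 genes in each of the 6 libraries, with control in grey and Ptf1a cKO in orange, and with the mean and SD of 3 libraries beside the points. The groups are apart for 7 genes and overlap for Tead1 and Lats2, and the widest gap is that of Tead2, between 1503 and 627.

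Both coactivators rose. Yap1 held 298, 342 and 312 normalized counts in control replicates 1 to 3 and 418, 443 and 390 in Ptf1a cKO replicates 1 to 3. The lowest Ptf1a cKO library lay above the highest control library, and the means were 317 ± 22.6 and 417 ± 26.4 (SD, n = 3 each). Limma put the change at 0.39 on the log2 scale, with a standard error of 0.11 (adjusted p = 0.0245). Leaving out control replicate 1 (adjusted p = 0.0939), Ptf1a cKO replicate 1 (0.0651) or Ptf1a cKO replicate 2 (0.0590) ended that call by limma, while the change itself stayed between 0.35 and 0.45.
Wwtr1, which encodes TAZ, rose more. Its values were 51.1, 54.7 and 60.2 normalized counts in control and 92.6, 102 and 92.7 in Ptf1a cKO. The 2 groups were far apart compared with the spread within each, with means of 55.3 ± 4.62 and 95.8 ± 5.54 (SD, n = 3 each). This was a log2 change of 0.76 with a standard error of 0.14 (adjusted p = 0.00307, limma), which passed in 6 of 6 fits with a library left out. Within each library, the ratio of Yap1 to Wwtr1 normalized counts, not divided by gene length, was 5.83, 6.25 and 5.18 in control and 4.51, 4.33 and 4.21 in Ptf1a cKO. This ratio was lower in every Ptf1a cKO library than in any control library.

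The promoters of both coactivators are shown because the RNA of Yap1 and Wwtr1 rose together. RefSeq gives 1 window for Yap1, at chr9:8004547-8004846 on the minus strand of GRCm38.p6, and 2 overlapping windows for Wwtr1, of which the one at chr3:57575861-57576160, also on the minus strand, is shown. Each window holds 250 bases before and 50 after the annotated start. Capitals mark the core motif bound by TEAD factors, GGAATG, searched on both strands.
Yap1: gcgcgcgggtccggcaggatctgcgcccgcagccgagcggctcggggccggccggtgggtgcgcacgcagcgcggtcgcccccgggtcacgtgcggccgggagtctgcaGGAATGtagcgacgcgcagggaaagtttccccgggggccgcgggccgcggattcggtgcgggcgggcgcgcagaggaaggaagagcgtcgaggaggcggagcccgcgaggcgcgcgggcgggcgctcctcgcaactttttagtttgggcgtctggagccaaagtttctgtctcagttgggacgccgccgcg
Wwtr1: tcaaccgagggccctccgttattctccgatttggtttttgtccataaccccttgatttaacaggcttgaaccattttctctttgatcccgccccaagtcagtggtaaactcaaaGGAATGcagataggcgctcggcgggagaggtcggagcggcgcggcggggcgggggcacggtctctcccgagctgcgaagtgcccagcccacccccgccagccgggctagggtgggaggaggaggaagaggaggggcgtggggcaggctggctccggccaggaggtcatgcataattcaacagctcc
Each of these windows holds a single match on the forward strand, 141 bases before the start of Yap1 and 136 bases before that of Wwtr1. Of the 11 windows that RefSeq gives for 7 of the 9 genes, 7 hold the motif, as do 14.7% of all 32851 promoter windows of the same length. No window of Tead2 or Lats1 holds it. A match describes the letters only, and no binding was measured. Windows of one gene can overlap, and the genes were named as parts and targets of the pathway.

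The kinases differed. Lats1 had 526, 555 and 603 normalized counts in control and 410, 411 and 386 in Ptf1a cKO. Each Ptf1a cKO value lay below each control value, and the means were 561 ± 38.9 and 402 ± 14.2 (SD, n = 3 each). The fitted log2 change was -0.47, its standard error 0.11 and its adjusted p 0.00925 (limma), with a call in 6 of 6 fits with a library left out. The direction of Lats1 rests on the scaling, since its change was 1.01 with library totals made equal and 0.20 with totals made equal after the digestive enzymes were left out, against 1.48 and 0.70 for the median gene.
Lats2 is both a kinase of the pathway and a target of YAP. It had 78.7, 74.6 and 85.1 normalized counts in control and 58.9, 80.9 and 100.1 in Ptf1a cKO. The Ptf1a cKO libraries lay on both sides of the controls, and the log2 fold change was -0.020 (95% interval -0.45 to 0.41, adjusted p = 0.945, limma).
Ratios within a library do not depend on the scaling between libraries. Those of normalized counts are not divided by length, so they compare the groups and not the levels of the genes. Yap1 over Lats1 was 0.57, 0.62 and 0.52 in control and 1.02, 1.08 and 1.01 in Ptf1a cKO. Wwtr1 over Lats1 was 0.097, 0.099 and 0.10 in control and 0.23, 0.25 and 0.24 in Ptf1a cKO. Both coactivators were thus higher relative to Lats1 in every Ptf1a cKO library. A total of 26 such ratios and shares were computed after the values had been seen. An exact permutation test (two-sided) gave 0.10 for each of the 21 whose groups did not overlap, and 0.124 after Benjamini-Hochberg adjustment over the 26, so none could pass the threshold.

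Tead2 fell most among the 9 genes. TEAD factors bind DNA and depend on YAP or TAZ to activate transcription, and a cell usually expresses several of the family. Tead2 had 2127, 1804 and 1503 normalized counts in control and 335, 627 and 247 in Ptf1a cKO. The 3 Ptf1a cKO values differed among themselves by more than those of any other of the 9 genes relative to their mean, but the highest of them was below the lowest control value. Means were 1811 ± 312 and 403 ± 199 (SD, n = 3 each). By limma the log2 change was -2.25 with a standard error of 0.29 (adjusted p = 6.84e-04). It passed in 6 of 6 fits with a library left out, being largest (-2.63) when Ptf1a cKO replicate 2 was omitted and smallest (-1.96) when replicate 3 was.

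Tead3 rose from 47.4, 46.5 and 39.3 normalized counts to 80.0, 68.0 and 59.8. The groups did not overlap, and the log2 change of 0.60 had a standard error of 0.17 (adjusted p = 0.0245, limma). The call was lost without control replicate 1 (adjusted p = 0.050), 2 (0.0559) or 3 (0.0603) and without Ptf1a cKO replicate 1 (0.0955), all by limma, while the change stayed between 0.50 and 0.70. Tead1 had 287, 284 and 214 normalized counts in control and 275, 282 and 308 in Ptf1a cKO. These ranges overlap, and the log2 fold change was 0.15 (95% interval -0.16 to 0.46, adjusted p = 0.430, limma). Tead4 was not analysed here.
The 3 factors together therefore had another makeup in Ptf1a cKO. Per kb of exon, Tead2 made up 94.0%, 93.1% and 93.6% of the 3 in control libraries and 68.5%, 80.9% and 62.0% in Ptf1a cKO libraries. Tead1 went from 4.78% ± 0.35 to 20.0% ± 7.24 and Tead3 from 1.65% ± 0.14 to 9.55% ± 2.89 (SD, n = 3 each). Without division by length, the share of Tead2 was 85.5% ± 0.95 and 51.0% ± 12.2 (SD, n = 3 each). On both scales no library of one group reached the other group. The ratio of Tead2 to Tead1 normalized counts, not divided by length, was 7.41, 6.36 and 7.03 in control and 1.22, 2.23 and 0.80 in Ptf1a cKO. Per kb, Tead2 stayed above Tead1 in all 6 libraries.

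**Figure D2:**
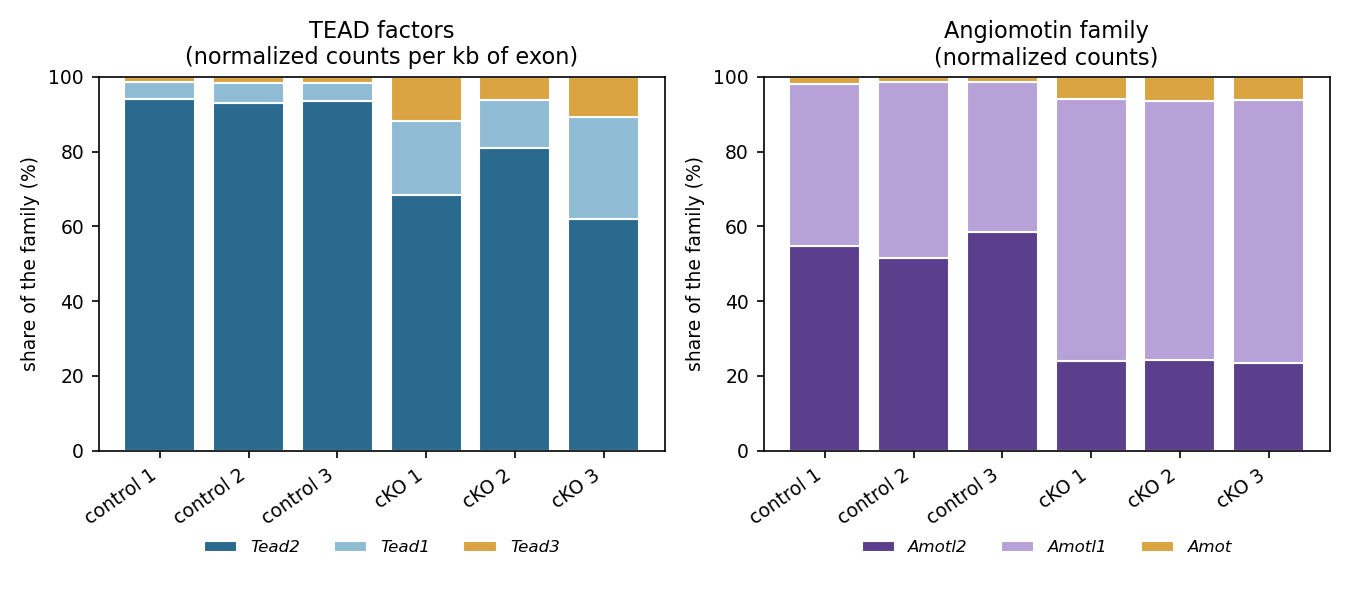
Share of each gene (percent of the family, vertical axes) in each of the 6 libraries, for the 3 TEAD factors as normalized counts per kb of exon on the left and for the 3 angiomotin genes as normalized counts on the right. The Tead2 share is between 93.1% and 94.0% in control and between 62.0% and 80.9% in Ptf1a cKO, and the Amotl2 share is between 51.5% and 58.6% in control and between 23.5% and 24.3% in Ptf1a cKO.

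In Ptf1a cKO, the level of Tead2 lay close to the summed acinar markers in each library. In replicates 1, 2 and 3 it was at 18.5%, 34.6% and 13.6% of the control mean, and the sum of 15 acinar markers was at 20.9%, 34.4% and 12.4%. Replicate 2 was the highest and replicate 3 the lowest in both. Bhlha15, a transcription factor of mature acinar cells, was at 17.4%, 41.4% and 14.3%, Rbpjl, the acinar partner of PTF1A, at 14.3%, 47.5% and 12.6%, and Ptf1a at 3.27%, 11.6% and 1.69%. Of the 15 acinar markers, 12 had their Ptf1a cKO libraries in the same order as Tead2, and the other 3 (Ctrc, Amy2b and Clps) were highest in replicate 1. In control, 8 of 15 had the order of Tead2. Ptf1a did not, being at 93.4%, 99.1% and 107% of its control mean where Tead2 was at 117%, 99.6% and 83.0%, and Bhlha15 was highest in replicate 3, where Tead2 was lowest. The share of all genes with either order was not counted, and markers of 1 cell type are not separate observations. These counts of orders are a description only. Per 1000 acinar marker counts, Tead2 held 0.15, 0.13 and 0.13 counts in control and 0.12, 0.14 and 0.15 in Ptf1a cKO, which overlap (0.14 ± 0.011 and 0.14 ± 0.015, SD, n = 3 each). A few abundant enzymes make up most of that sum. Whether the fall of Tead2 is a change within acinar cells or a smaller share of them was not tested. Under none of the scalings tried did Tead2 change direction. With library totals made equal, it was the only 1 of the 9 genes to be lower past the threshold, with a log2 fold change of -0.77 against 1.48 for the median gene.
The Tead2 promoter is shown as that of the gene with the largest fall. Its RefSeq window, at chr7:45215542-45215841 on the plus strand of GRCm38.p6, was searched for the TEAD motif and for 3 others, and capitals mark the only match.
Tead2: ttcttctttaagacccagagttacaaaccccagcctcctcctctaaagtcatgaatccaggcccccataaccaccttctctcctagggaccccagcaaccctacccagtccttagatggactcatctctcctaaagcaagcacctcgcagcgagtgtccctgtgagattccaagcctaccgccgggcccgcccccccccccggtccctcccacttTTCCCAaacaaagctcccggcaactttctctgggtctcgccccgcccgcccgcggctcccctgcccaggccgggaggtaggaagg
The match, 35 bases before the annotated start and on the reverse strand, is to TGGGAA, the core bound by the RBP-J subunit of the PTF1 complex. The same motif is held by 25.6% of all windows. There was no match to the E-box CANNTG, which 72.3% of all windows hold, nor to the AP-1 motif TGANTCA (7.81%) or GGAATG, and nothing about binding follows from these letters.

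**Figure D3:**
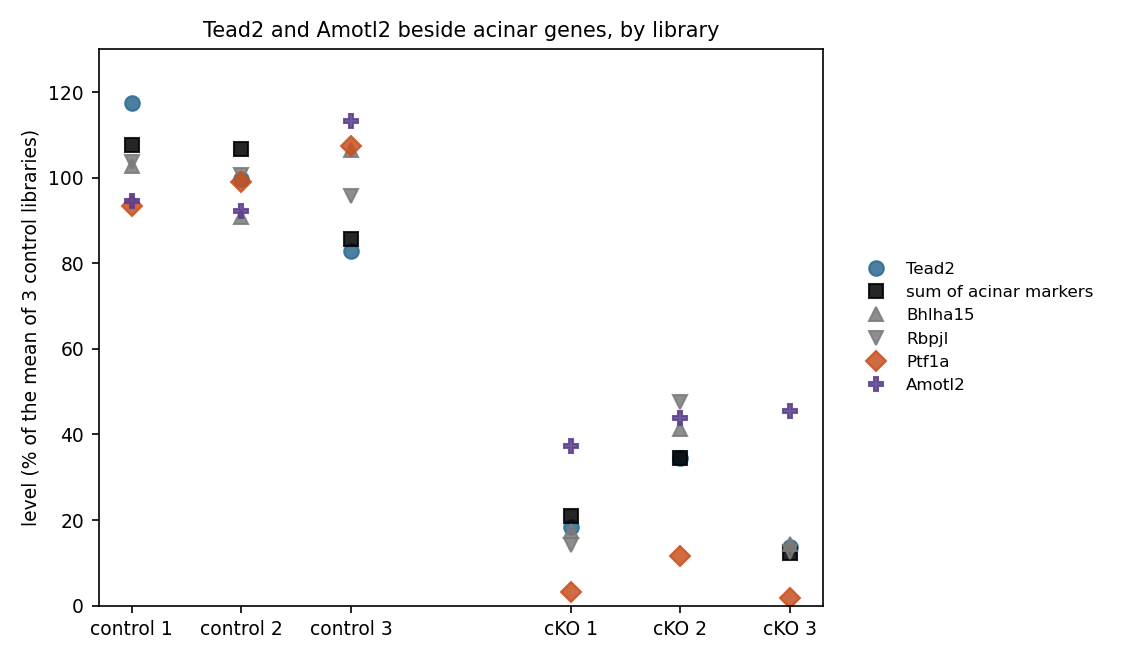
Level of Tead2, Amotl2, Ptf1a, Rbpjl, Bhlha15 and the sum of 15 acinar markers in each library, as a percent of the mean of the 3 control libraries (vertical axis, from 0). In Ptf1a cKO the points of Tead2 (18.5%, 34.6% and 13.6%) lie next to those of the acinar sum (20.9%, 34.4% and 12.4%), while those of Amotl2 lie between 37.3% and 45.5%.

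The target genes moved in opposite directions. Ctgf, which encodes a matricellular protein that promotes fibrosis and is a widely used readout of YAP, had 22.0, 16.6 and 36.8 normalized counts in control and 40.7, 42.2 and 74.1 in Ptf1a cKO. The groups were apart only narrowly, since control replicate 3 nearly reached Ptf1a cKO replicates 1 and 2. The means were 25.1 ± 10.4 and 52.3 ± 18.9 (SD, n = 3 each). On the log2 scale this came to 0.98 with a standard error of 0.32 (adjusted p = 0.0441, limma). This call was lost without control replicate 1 (adjusted p = 0.116), control replicate 2 (0.138), Ptf1a cKO replicate 1 (0.0577) or Ptf1a cKO replicate 3 (0.146), and with sex as a covariate (0.0529), all by limma. Leaving out single libraries moved the change between 0.71 and 1.25. Ctgf is also made by fibroblasts and stellate cells, whose 12 markers summed to 3316 to 3901 normalized counts in control and 6366 to 11665 in Ptf1a cKO. Per 1000 of those counts, Ctgf held 6.02, 5.00 and 9.42 in control and 6.39, 3.62 and 8.49 in Ptf1a cKO, and these ranges overlap. In both groups Ctgf was highest in replicate 3, the library with the highest leukocyte, endothelial and islet marker sums of its group. The smooth muscle marker sum was also highest in replicate 3 of Ptf1a cKO. The fibroblast and stellate sum was highest in replicate 3 of control, as for Ctgf, but in replicate 2 of Ptf1a cKO. The part of these cells in the rise of Ctgf was not tested.
Amotl2, which encodes an angiomotin that binds YAP and is itself induced by YAP and TEAD, fell. Its values were 342, 333 and 409 normalized counts in control and 135, 159 and 164 in Ptf1a cKO. The Ptf1a cKO libraries were at 37.3%, 43.9% and 45.5% of the control mean, closer together than for Tead2. The means were 361 ± 41.8 and 153 ± 15.6 (SD, n = 3 each). The log2 change was -1.22, with a standard error of 0.13 (adjusted p = 2.74e-04, limma), and 6 of 6 fits with a library left out made the call. With library totals made equal, the change was 0.25 (adjusted p = 0.344, limma), against 1.48 for the median gene. Unlike Tead2, Amotl2 did not have its highest Ptf1a cKO value in replicate 2, the library with the most acinar marker counts of that group. Per 1000 acinar marker counts, Amotl2 held 0.024, 0.023 and 0.036 in control and 0.048, 0.035 and 0.10 in Ptf1a cKO. These ranges overlap, and the part of acinar cells in the fall of Amotl2 was not tested. The ratio of Amotl2 to Ctgf was 15.5, 20.1 and 11.1 in control and 3.31, 3.76 and 2.22 in Ptf1a cKO.
The Amotl2 promoter is shown because this target fell. It lies at chr9:102717554-102717853 on the plus strand of GRCm38.p6 in RefSeq, and capitals again mark the TEAD motif, here on the reverse strand.
Amotl2: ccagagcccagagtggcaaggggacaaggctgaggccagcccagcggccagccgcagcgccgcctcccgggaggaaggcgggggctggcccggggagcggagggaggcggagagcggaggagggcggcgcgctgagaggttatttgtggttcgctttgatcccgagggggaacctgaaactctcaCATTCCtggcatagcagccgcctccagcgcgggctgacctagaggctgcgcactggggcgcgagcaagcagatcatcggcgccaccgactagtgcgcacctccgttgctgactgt
The match lies 65 bases before the annotated start, and there was none to the E-box, RBP-J or AP-1 motif. Of these 4 promoters, the motif is thus held by Yap1 and Wwtr1, which rose, and by Amotl2, which fell.

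To rank the genes by level, values were divided by exon length. In control pancreata the order was led by Tead2 with 378 ± 65.2 normalized counts per kb (SD, n = 3), followed by Lats1 (76.9 ± 5.33), Amotl2 (57.5 ± 6.64), Yap1 (34.3 ± 2.44) and Tead1 (19.3 ± 3.06), none of which overlapped with its neighbours. Wwtr1 (11.6 ± 0.97), Lats2 (11.4 ± 0.75) and Ctgf (8.78 ± 3.65) overlapped, and Ctgf also overlapped with Tead3 (6.61 ± 0.67), the lowest. In Ptf1a cKO, Tead2 (84.1 ± 41.6) no longer stood apart from Lats1 (55.2 ± 1.95), and Yap1 (45.0 ± 2.85) came next. Amotl2 (24.3 ± 2.49), Tead1 (21.2 ± 1.30), Wwtr1 (20.1 ± 1.16) and Ctgf (18.3 ± 6.59) followed with overlapping ranges, then Lats2 (11.5 ± 2.96), whose highest library just reached the lowest of Ctgf, and Tead3 (10.3 ± 1.51), which overlapped with Lats2. Yap1 and Amotl2 changed places, and so, by their means, did Lats2 and Ctgf, whose ranges overlapped in both groups. Exon lengths are those of all annotated transcripts together (2.861 kb for Ctgf to 13.57 kb for Tead1), so genes with long, little used exons come out too low. Exons of another gene cover 2955 bases of Lats2, 665 of Ctgf, 116 of Yap1 and 13 of Tead2, and reads there may be missing or misplaced.

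Beyond the 9 genes, 26 of 32 other Hippo pathway genes were tested. Of these 6 rose and 2 fell, or 30.8% against 33.9% of all genes, so the share that changed was near the background. With library totals made equal, all 26 passed as higher, as did 9587 of the 10245 genes. Their median log2 fold change was 0.18. Among 9 upstream regulators and scaffolds, 1 rose and 2 fell, or 33.3% against 33.9% of all genes. Wwc1 (KIBRA), a scaffold that helps to activate LATS kinases, went from 560, 583 and 420 normalized counts to 258, 290 and 277, a log2 fold change of -0.90 (adjusted p = 0.00174, limma). Its paralog Wwc2 changed by -0.82 (adjusted p = 0.00237, limma). Both groups were apart for either gene. Fat1, an atypical cadherin, rose by 0.96 (adjusted p = 0.00379, limma). The adaptors Sav1 (-0.21) and Frmd6 (0.10) had the next largest changes and did not pass. With library totals made equal, Wwc1 changed by 0.58 and Wwc2 by 0.64, again below the 1.48 of the median gene.
Of 8 kinases, 1 passed, or 12.5% against 33.9% of all genes. Taok3, which can phosphorylate the MST kinases, changed by 0.49 (adjusted p = 0.0357, limma), a call lost without control replicate 1 (adjusted p = 0.123), control replicate 3 (0.0785), Ptf1a cKO replicate 1 (0.105) or Ptf1a cKO replicate 3 (0.12). Map4k4 (0.35) and Taok1 (0.28) did not pass, nor did Stk3 (-0.25) and Stk4 (0.17), the MST kinases themselves.

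Of 9 genes for proteins that bind, turn over or otherwise regulate YAP, TAZ or TEAD, 4 rose and none fell. This was 44.4% called, against 33.9% of all genes. Amot, the founding member of the angiomotin family, had 12.6, 8.28 and 9.75 normalized counts in control and 33.3, 42.7 and 44.3 in Ptf1a cKO, a log2 fold change of 1.68 (adjusted p = 0.00348, limma). The control mean of Amot, 10.2, was below 16.8, the lowest mean over 6 libraries of any gene analysed. Only its Ptf1a cKO values thus brought Amot into the analysis, which favours its rise and its place among the 4. Amotl1 went from 269, 306 and 279 to 396, 451 and 491 normalized counts, a change of 0.64 (adjusted p = 0.00401, limma). Both groups were apart for each gene. Amot and Amotl1 therefore rose while their paralog Amotl2 fell. Among the 3 angiomotins, Amotl2 made up 54.8%, 51.5% and 58.6% of the normalized counts, not divided by length, in control and 23.9%, 24.3% and 23.5% in Ptf1a cKO, and Amotl1 made up 43.5% ± 3.64 and 69.8% ± 0.61 (SD, n = 3 each). The 3 Ptf1a cKO libraries hardly differed from each other in this makeup.
Vgll4, which competes with YAP for TEAD, had 24.5, 30.2 and 34.3 normalized counts in control and 82.0, 107 and 89.0 in Ptf1a cKO. Its groups were well apart, with a log2 fold change of 1.54 (adjusted p = 4.54e-04, limma). Ptpn14, a phosphatase that binds YAP and is also a target of it, changed by 0.54 (adjusted p = 0.0323, limma), a call lost without control replicate 1 (adjusted p = 0.113), control replicate 3 (0.0710) or Ptf1a cKO replicate 3 (0.0983). Wtip (0.57) and Csnk1e (0.42) did not pass. Fat1, Wwc1, Wwc2, Amot, Amotl1 and Vgll4 passed in 6 of 6 fits with a library left out.

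**Figure D4:**
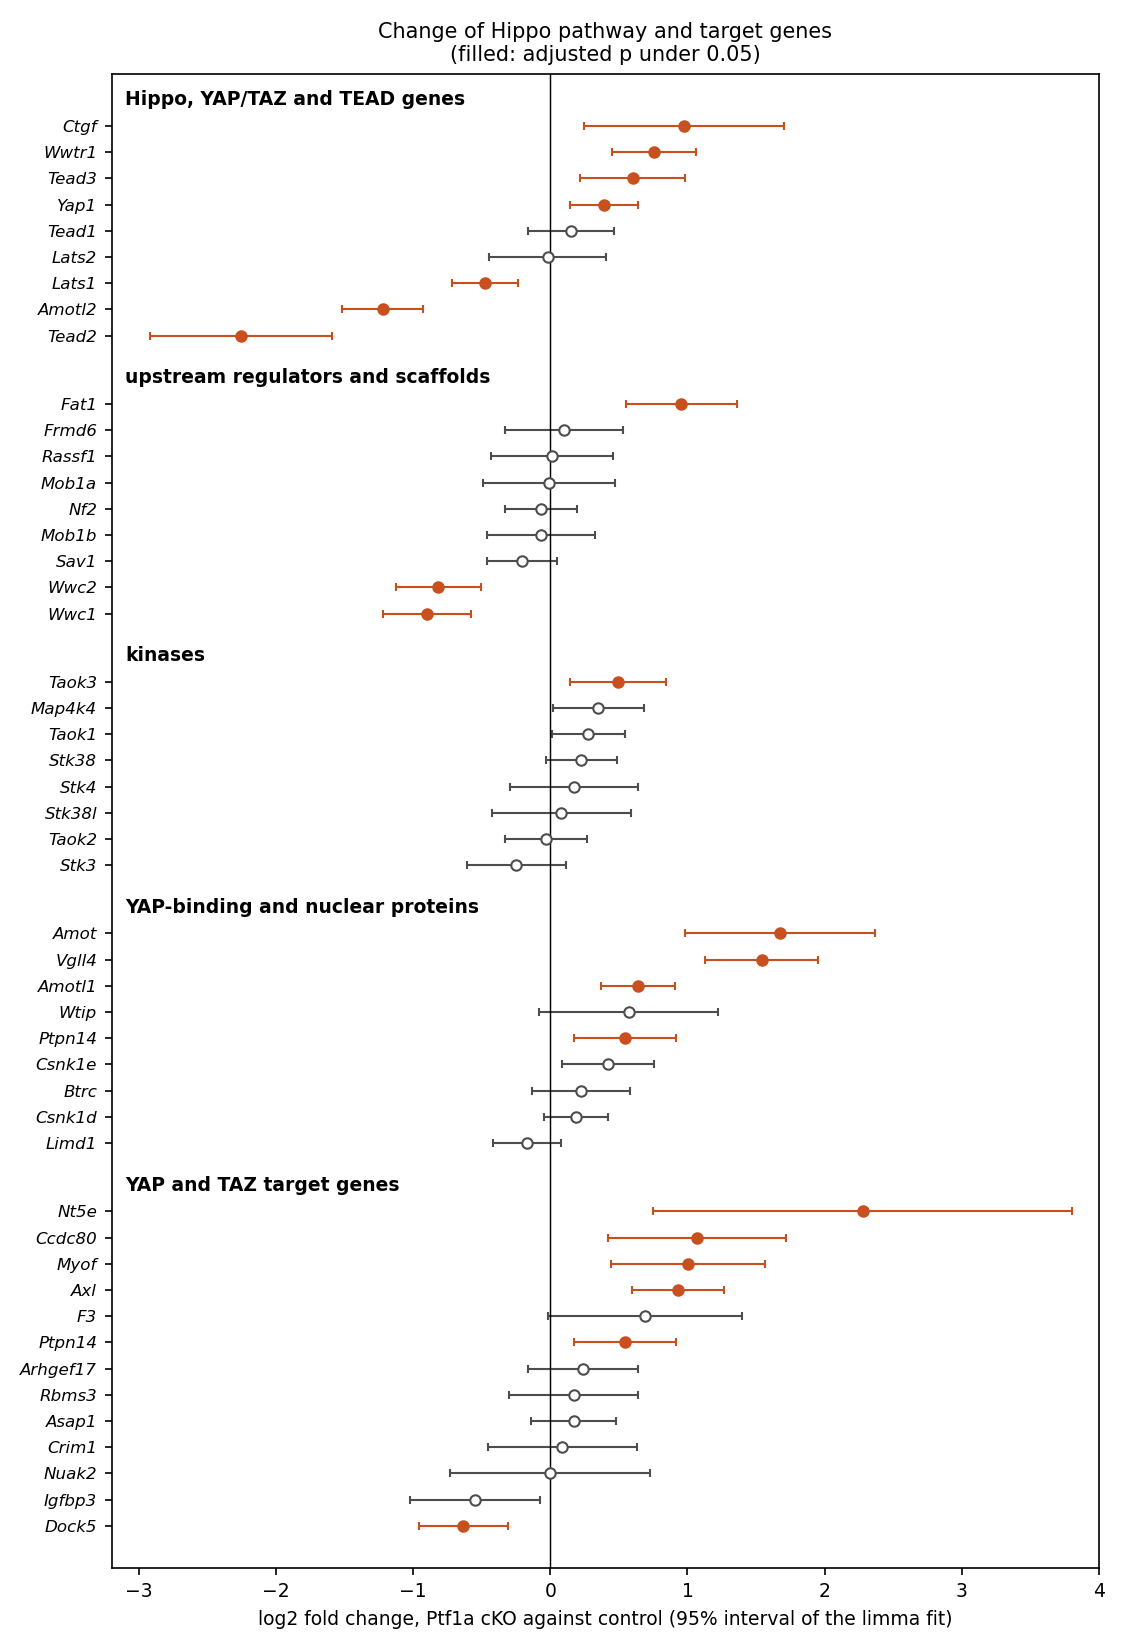
Log2 fold change of Ptf1a cKO against control (horizontal axis, with the 95% interval of the limma fit) for the 9 genes and the genes of the other lists, with filled points for an adjusted p under 0.05. Amot (1.68), Amotl1 (0.64) and Vgll4 (1.54) lie to the right of 0, and Amotl2 (-1.22), Wwc1 (-0.90) and Wwc2 (-0.82) to the left, the latter 3 turning to 0.25, 0.58 and 0.64 with library totals made equal.

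Of 18 other genes that are widely used as readouts of YAP and TAZ, 13 were tested. Of these 5 rose and 1 fell, or 46.2% against 33.9% of all genes, with a median log2 fold change of 0.24. Axl, a receptor tyrosine kinase, had 121, 153 and 116 normalized counts in control and 216, 255 and 279 in Ptf1a cKO, a change of 0.93 (adjusted p = 0.00184, limma). Myof, which encodes the membrane repair protein myoferlin, changed by 1.00 (adjusted p = 0.0141, limma), and the call was lost without Ptf1a cKO replicate 3 (0.0520, limma). Ccdc80, a secreted matrix protein, changed by 1.07 (adjusted p = 0.0197, limma), a call lost without control replicate 1 (0.0624), control replicate 2 (0.0714) or Ptf1a cKO replicate 3 (0.0626). Ptpn14, given above, belongs to this list too.
Nt5e, which encodes the surface enzyme CD73, had the largest change of the list (2.28, adjusted p = 0.0294, limma), but its groups overlapped. It had 3.58, 3.60 and 11.6 normalized counts in control and 63.8, 11.1 and 82.5 in Ptf1a cKO, so replicate 2 of Ptf1a cKO was within the range of the controls. Its control mean of 6.26 was below 16.8, the lowest mean over 6 libraries of any gene analysed. Nt5e was thus analysed only because of its Ptf1a cKO values, which favours its rise and its place among the 5. The leukocyte, endothelial and islet marker sums were likewise highest in replicate 3 of each group, and within Ptf1a cKO they were lowest in replicate 2. The leukocyte sum ran from 466 to 778 normalized counts in control and from 1225 to 2717 in Ptf1a cKO. The endothelial and islet sums overlapped between the groups. The part of these cells in the change of Nt5e was not tested. The call was lost without control replicate 1 (0.0885), control replicate 2 (0.0841), Ptf1a cKO replicate 1 (0.114) or Ptf1a cKO replicate 3 (0.100), all as adjusted p by limma. Dock5, an activator of RAC, fell by 0.63 on the log2 scale (adjusted p = 0.00916, limma), with a call in 6 of 6 fits, but its change was 0.82 with library totals made equal. F3, or tissue factor, had a change of 0.69 and did not pass. Igfbp3, which binds insulin-like growth factors, had a change of -0.55 (adjusted p = 0.0718, limma) and passed without Ptf1a cKO replicate 1 (0.0483, limma). Axl passed in 6 of 6 fits with a library left out. Axl, Myof, Ccdc80 and Nt5e are also expressed by fibroblasts, whose markers rose in Ptf1a cKO. The fibroblast and stellate marker sum was highest in Ptf1a cKO replicate 2, as was Ccdc80. Nt5e was lowest of its group there, and Axl and Myof were highest in replicate 3. The part of fibroblasts in these changes was not tested.

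The genes whose log2 values were most like those of Yap1 over the 6 libraries were Ift52 (Pearson r = 0.999), Ing4 (0.993), Lrch1 (0.990), Aaed1 (0.990) and Mboat7 (0.985). Those most like Ctgf were Sdc3 (0.995), Map4 (0.993), Sertad3 (0.993), Cd53 (0.993) and Myo5a (0.988). Over 6 libraries of 2 groups, out of all genes of the table, the highest such correlations are close to 1 in any case, and they are given as a description only. Cd53, a leukocyte surface protein, had 14.0, 8.51 and 33.9 normalized counts in control and 39.7, 34.0 and 117 in Ptf1a cKO, so replicate 3 was highest in each group, as for Ctgf.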

How the data were processed

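RNA-seq libraries from the whole pancreas of 3 control and 3 Ptf1a cKO mice were compared. According to the methods and the submitters' processing notes, 50-nucleotide single-end reads were aligned to mm9 with TopHat2 2.0.4 (Bowtie, SAMtools) and counted with HTSeq 0.6.0, and the authors used edgeR with TMM normalization. The annotation, strand setting and filter on low values are not given in the sources used here. The deposited signal is 1 normalized read count per gene and library, scaled by the authors. Its decimals have no common step, so whole reads could not be recovered and no count model was run. A further 3 entries name no gene. They held 75.7% to 77.3% of a library's normalized counts in control and 78.9% to 82.6% in Ptf1a cKO and were left out.

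All values were divided by 13.6 and log2(value + 0.25) was taken, and a mean of at least 0.25 was required, a filter that took out 0 genes. Control and Ptf1a cKO were compared with limma 3.58.1 in R 4.3.3 (mean-variance trend, two-sided, Benjamini-Hochberg over 10245 genes), as tested on simulated data. Mouse identifiers differ among all 6 libraries, so equal replicate numbers do not mark the same animal. Whether same-numbered mice shared a litter or batch cannot be read from them, and the main fit used no block. Exon lengths and overlaps came from GENCODE M21 (GRCm38), promoters from RefSeq (GRCm38.p6), and both were joined by symbol, Ctgf as Ccn2. The genes and lists were chosen with earlier results of these data known, and the ratios, shares and motifs after the values were seen. Named were all members, in each list the genes that passed and whose groups did not overlap, with the 2 largest other changes, Ptf1a, and the 5 genes most like Yap1 and Ctgf. Stk3, Stk4, Igfbp3, Bhlha15, Rbpjl, Ctrc, Amy2b, Clps, Cd52 and Car2 were named after their values were seen. Alternatives were other pseudocounts, filters, scalings and limma settings, a block for the replicate number, a covariate for sex, a threshold of 0.01, and each library left out.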

Additional observations from a re-analysis of the deposited data

How the results depend on the processing

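Of 171 values of the 9 genes under the 19 alternatives, 146 kept direction and side of the threshold and 8 changed sign. With the direction kept, 15 fell below the threshold and 2 passed it. Among the 8, Lats2 also passed with the same total (adjusted p = 2.87e-05, limma) and with the same total without digestive enzymes (0.0250, limma). In the latter Lats1 no longer passed (0.127, limma), nor did Amotl2 with the same total (0.344, limma). Wwtr1 and Tead2 kept direction and side of the threshold in all 19. Rescaling to the same total put the median gene at 1.48, with 9716 genes called in place of 3475. It gave 7 higher and 1 lower of the 9 genes, 26 and 0 of the other pathway genes, and 13 and 0 of the other targets, with Lats1 at 1.01, Lats2 at 1.41 and Amotl2 at 0.25. The same total without digestive enzymes (median gene 0.70, 7787 genes called) gave 24 and 0 pathway genes, 10 and 0 targets, Lats1 at 0.20 and Lats2 at 0.64. Lats2 was at 0.024 with the same 75th percentile, and between -0.19 and 0.18 with a library left out, at 0.028 without control replicate 3 and 0.18 without Ptf1a cKO replicate 1. At an adjusted p under 0.01, 1 of the 9 genes and 1 target were higher, and 1794 genes were called. With a mean of at least 2 required in place of 0.25, Amot was not tested and 5 pathway genes were higher. With single libraries left out, 1 to 3 of the 9 genes were higher and 3 lower, 4 to 6 pathway genes higher and 2 lower, and 1 to 5 targets higher and 1 to 2 lower. These fits hold 5 libraries, and between 2363 and 3601 genes passed in them. With the replicate number as a block, 2 targets were lower in place of 1, since Igfbp3 passed (-0.55, adjusted p = 0.0269, limma), and Taok3 and Csnk1e changed sides (0.0503 and 0.0471). Deviations of same-numbered libraries correlated by 0.039, 0.13 and 0.14. For Ptf1a cKO replicates 2 and 3 the same-numbered control correlated best, while replicate 1 correlated better with control replicate 2 (0.083). These values do not settle whether the numbers mark pairs, and the main fit did not take them as such. The planned count models were not run, since whole reads could not be recovered. The reads behind single values are unknown, and 3 mice a group limit the precision.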
